A study of Drosophila melanogaster with 10 samples.

Results

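Transcripts of fly heads were compared between the light and the dark phase of the day on 6 of the 10 Affymetrix arrays of a time-of-day series. The light phase is the arrays at ZT3 (replicate 3), ZT7 and ZT11, and the dark phase is the arrays at ZT15 (replicate 1), ZT19 and ZT23. ZT is zeitgeber time, in hours, and by its usual convention the count starts when the lights go on. The labels do not give the light schedule, so the names of the phases rest on that convention. Every array holds total RNA from heads of yw flies, a strain named for the body colour gene yellow and the eye colour gene white. The title of each array calls it a control, and the labels give no treatment, sex, age or source culture. The other 4 arrays are ZT3 replicates 1 and 2 and ZT15 replicates 2 and 3, and they were used as a separate look at the same genes.

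The fly clock is a transcriptional loop. The proteins of Clk and cyc switch on per and tim by day and into the evening, and the PER and TIM proteins later shut off their own genes. The same activators drive vri and Pdp1, whose proteins repress and activate Clk, and cry encodes a blue-light receptor that marks TIM for breakdown. A comparison of day with night therefore cuts the loop at lights-on and lights-off, wherever a transcript's own peak falls.

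Levels are given as the natural log of the deposited intensity, which is likely the log2 value that the array software reported. A difference of 1 is then a doubling of signal. Should the authors have deposited ordinary intensities, differences in log2 units grow by a factor of 1.44. Differences are light minus dark with their standard error (SE). Each time has 1 array, so the standard deviation (SD) within a phase is the spread over 3 times of day and not over repeats of a time. The groups were said not to overlap where all 3 arrays of one phase lay above all 3 of the other.

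The 6 arrays correlated at 0.966 to 0.991 with each other over the tested probe sets, and at 0.721 to 0.834 with the other 4 arrays. Pairs of a light and a dark array correlated at 0.967 to 0.991, as closely as pairs within a phase, at 0.966 to 0.988. The median level of the 6 arrays lay between 8.24 and 8.31. Neuron markers were present, with a median of 10.4 to 11.2 per array. Genes of male reproductive organs were present too. The 19 testis markers had medians of 10.9 to 11.8 on the light arrays and 10.5 to 11.7 on the dark arrays, against 3.89 to 6.06 on the other 4. The 17 accessory gland markers had medians of 12.2 to 13.2 on the light arrays and 12.1 to 13.4 on the dark arrays, against 3.57 to 3.89 on the other 4. The labels say heads for all of these arrays. In such bulk RNA, fewer cells of a type and less RNA per cell cannot be told apart.

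No transcript passed the test of light against dark. Of 12811 probe sets with a mean level of 4 or more, 0 (0%) had an adjusted p of 0.05 or less, and the lowest adjusted p was 0.998 (limma, Benjamini-Hochberg adjustment). An unadjusted p under 0.05 was reached by 450 probe sets (3.51%), fewer than the 5% that p-values spread evenly would give. Of these, 185 (1.44%) were higher and 265 (2.07%) lower in light. The phases did not overlap for 389 probe sets (3.04%) that were higher in light and 624 (4.87%) that were lower in light. With each array centred on its median these counts were 235 and 780. A difference of 1 or more without overlap was found for 32 probe sets (0.25%) higher in light and 21 (0.164%) lower in light. The differences were small for most transcripts, with a median of -0.0012 and a middle range from -0.12 to 0.14.

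The highest values were unevenly spread over the arrays. Of the 389 probe sets higher in light without overlap, 216 had their highest value at ZT11, 108 at ZT3 and 65 at ZT7. Of the 624 that were lower in light, 348 had their highest value at ZT23, 170 at ZT15 and 106 at ZT19. Over all tested probe sets, ZT23 held the highest value for 3724 and ZT11 for 2920. The control probe sets for 18S ribosomal RNA were higher in light by 0.37 to 0.54, and all 3 were lowest at ZT23. Those for actin were higher in light by 0.26 to 0.49 and were lowest at ZT23 too. Those for GAPDH differed by -0.12 to 0.31. The part of these array differences in the counts was not tested.

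The other 4 arrays were taken at 1 light and 1 dark time. There 0 of 12520 probe sets (0%) had an adjusted p of 0.05 or less and 1372 (11%) an unadjusted p under 0.05, with a lowest adjusted p of 0.0517 (limma). Of the 389 probe sets that were higher in light without overlap, 255 (65.6%) were also higher at ZT3 than at ZT15 on the other 4 arrays, against 51.9% of all tested probe sets. Of the 624 that were lower in light, 406 (65.1%) were also lower at ZT3, against 48.1% of all. These 4 arrays share no array with the 6, but they share the clock times ZT3 and ZT15. When all 10 arrays were fitted together with the array series as a block, 3 probe sets (0.0234%) passed. In that fit 847 (6.61%) had an unadjusted p under 0.05 (limma). It weighs ZT3 and ZT15 more than the other times.

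The core clock genes, each taken from its brightest probe set, swung by up to 3.54 units through the day, and none of the 8 passed the test between the phases (limma), nor did the phases separate for any of them. tim stood at 9.96, 11.90 and 13.30 at ZT3, ZT7 and ZT11 in light, and at 13.50, 13.05 and 12.03 at ZT15, ZT19 and ZT23 in dark. The values climbed through the light phase and declined through the dark phase, so that ZT11 and ZT15 were next to each other. The difference was -1.14 ± 0.84 (SE; unadjusted p = 0.219, limma). The 3 comparisons 12 hours apart were -3.54 for ZT3 minus ZT15, -1.15 for ZT7 minus ZT19 and 1.27 for ZT11 minus ZT23. The pairing of times therefore turned the sign for one and the same gene.

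per was at 7.05, 8.28 and 9.31 in light and at 10.21, 9.14 and 7.90 in dark, with its highest value at ZT15. Its difference was -0.87 ± 0.74 (SE), and the phases overlapped. vri, the repressor of Clk, was at 9.35, 11.46 and 12.30 in light and at 12.43, 11.36 and 10.14 in dark. Its difference of -0.27 ± 0.87 (SE) became 0.57 without ZT3 replicate 3 and 0.29 without ZT15 replicate 1. Clk ran the other way, at 9.07, 8.66 and 7.69 in light and at 6.90, 7.98 and 9.53 in dark. Its difference of 0.34 ± 0.69 (SE) became -0.28 without ZT15 replicate 1. These values show per, tim and vri at their highest around the light-to-dark boundary and Clk at its lowest there.

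cry was the 1 core clock gene with an unadjusted p under 0.05. It stood at 10.96, 10.92 and 10.30 in light and at 9.45, 9.03 and 10.50 in dark. Only ZT23 reached into the range of the light arrays. Its difference was 1.06 ± 0.39 (SE; unadjusted p = 0.0325, adjusted p = 0.998, limma). Pdp1 differed by -0.38 ± 0.33 (SE) and cyc by -0.10 ± 0.13 (SE). cwo, which encodes a repressor of the same target genes, differed by -0.08 ± 0.33 (SE), and this became 0.13 without ZT3 replicate 3 and 0.17 without ZT15 replicate 1. Clk and cry were higher, and tim, per, vri, Pdp1 and cwo lower, at ZT3 without overlap on the other 4 arrays, where 22.3% of genes were higher and 20.8% lower without overlap. tim was at 9.95 and 9.94 at ZT3 there, and at 13.31 and 13.40 at ZT15.

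**Figure D1:**
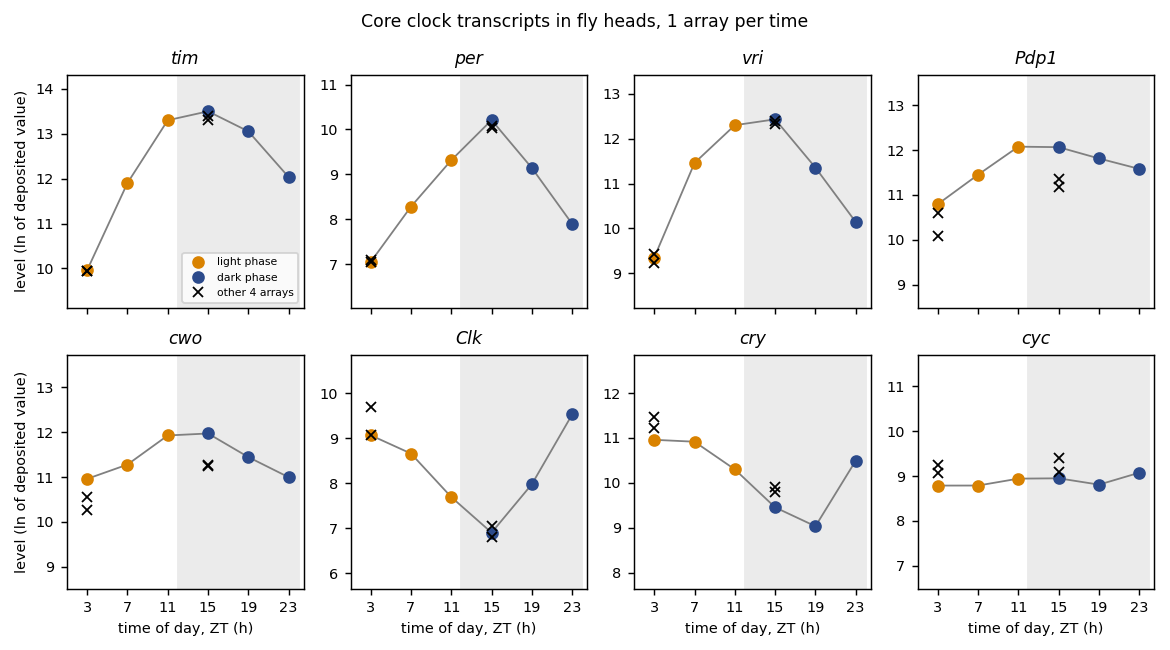
Level (natural log of the deposited value) of 8 core clock transcripts against time of day in hours, with orange points for the 3 light arrays, blue points for the 3 dark arrays and crosses for the other 4 arrays at ZT3 and ZT15. All panels span the same number of units, and tim, per and vri have their highest value at ZT15 next to ZT11, so both phases hold high and low values.

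Among the 24 genes named by the smallest unadjusted p, 3 passed once all 10 arrays were used. Those 10 include the 6 arrays on which the 24 were chosen, so this is not a separate look. The 4 added arrays are all at ZT3 or ZT15, so the 10-array differences lean towards ZT3 minus ZT15. Cks30A, which encodes a small subunit of the cyclin-dependent kinases needed for meiosis in the egg, stood at 7.29, 6.71 and 7.28 in light and at 5.04, 5.85 and 4.90 in dark. Every light array was above every dark array. The difference was 1.83 ± 0.30 (SE), and over all 10 arrays it was 1.82 ± 0.22 (SE; adjusted p = 0.048, limma). Cks30A was at 7.12 and 7.81 at ZT3 and at 5.57 and 5.74 at ZT15 on the other 4 arrays, a difference of 1.81. Its neighbour CG17005, with no other gene between them in the Release 6 plus ISO1 MT annotation, was also higher in light. It stood at 7.39, 7.35 and 6.40 in light and at 5.71, 6.15 and 5.61 in dark, and it differed by 1.36 in the same direction on the other 4 arrays.

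CG14221 was at 4.06, 3.76 and 4.24 in light and at 5.71, 5.51 and 5.32 in dark. The phases lay over 1 unit apart, and the difference was -1.49 ± 0.17 (SE). Over all 10 arrays it was -1.70 ± 0.16 (SE; adjusted p = 0.0223, limma). M7BP, named for a protein that binds Myosin 7a, was at 7.96, 7.74 and 7.82 in light and at 9.26, 8.97 and 9.82 in dark. Its light values were nearly equal and lay below all dark values. The difference was -1.51 ± 0.23 (SE), and over all 10 arrays it was -1.39 ± 0.15 (SE; adjusted p = 0.0369, limma). M7BP has 2 other tested probe sets, which differed by -0.08 and -0.20, so the difference was measured by only 1 of its 3.

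**Figure D2:**
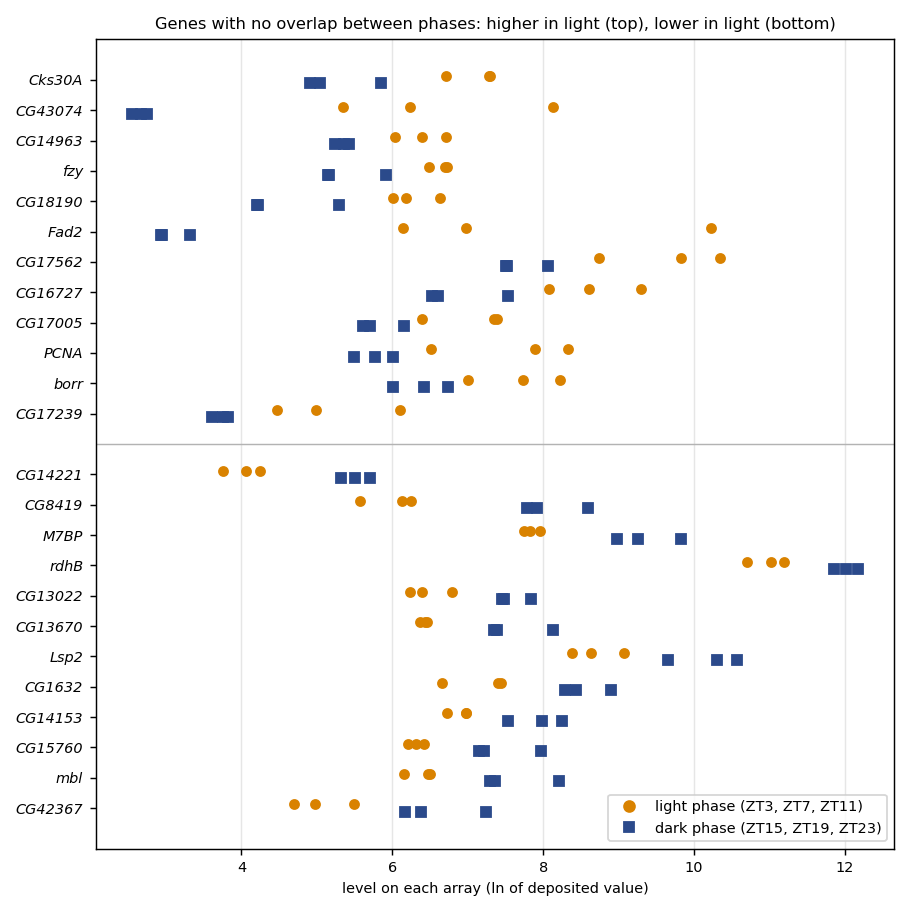
Level (natural log of the deposited value) on each array of the 24 named genes, with light arrays as orange circles and dark arrays as blue squares. The upper 12 genes are higher in light and the lower 12 lower in light, and in none of them do the phases overlap, because the genes were chosen for that.

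The other genes named as higher in light were CG43074, CG14963, fzy, CG18190, Fad2, CG17562, CG16727, PCNA, borr and CG17239. All dark values of CG43074, Fad2 and CG17239 lay under the filter level of 4, so these genes passed through their light values. Several of the named genes belong to dividing cells. fzy, the activator of the anaphase-promoting complex, was at 6.72, 6.48 and 6.69 in light and at 5.17, 5.91 and 5.14 in dark. Its other tested probe set differed by 0.02. PCNA, the sliding clamp of DNA replication, was at 7.89, 6.51 and 8.33 in light and at 6.00, 5.77 and 5.49 in dark. borr, a subunit of the chromosomal passenger complex, was at 7.73, 7.01 and 8.22 in light and at 6.42, 6.74 and 6.00 in dark. PCNA and borr were highest at ZT11 and lowest among the light arrays at ZT7.

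A list of cell cycle and DNA replication genes was drawn up after these values were seen, so it is described without a test. Of its 32 genes on the array 26 passed the level filter, and 4 of these had a dark mean under 4, so that they passed through their light values. All of the 26 that passed were above 0 and 13 (50%) were higher in light without overlap, 3 of them among the 4, where 330 of all 10102 genes (3.27%) were. The median difference was 1.06, against 0.01 for all genes, and these figures leave out the 6 genes below the filter. 19 of the 26 were highest at ZT11 and 5 at ZT3. The median level of the list was 6.40, 5.78 and 6.89 at ZT3, ZT7 and ZT11, and 5.32, 5.79 and 5.14 at ZT15, ZT19 and ZT23. Without ZT11 the median difference was 0.75. Without ZT7, 24 of the 26 were higher in light without overlap, where 8.36% of all genes were. The list's median difference between ZT3 and ZT15 was 0.06 on the other 4 arrays. There 5 of the 26 were higher and 5 lower at ZT3 without overlap, where 22.3% of all genes were higher and 20.8% lower. Of the other named genes of this kind, borr differed by -0.59 there and PCNA by 0.13 with overlap. The means of fzy lay under the filter level of 4 at both times there. CycB stands in this list and among the ovary markers.

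Eggshell and ovary transcripts lay high on 1 or 2 light arrays. Cp15, a chorion protein of the eggshell, was at 12.29, 4.64 and 7.34 in light and at 3.85, 4.24 and 3.55 in dark. CycB, a mitotic cyclin stored in eggs, was at 8.87, 4.02 and 10.30 in light and at 3.55, 3.39 and 3.48 in dark. osk, which directs germ cell formation in the egg, was at 6.74, 3.08 and 8.83 in light and at 3.17, 3.26 and 3.15 in dark. All 3 were high at ZT3 and ZT11 and close to their dark values at ZT7. Vm26Aa, a vitelline membrane protein, was at 4.71, 4.91 and 11.44 in light and at 4.70, 4.28 and 4.0 in dark, high at ZT11 alone.

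Of 21 ovary and eggshell markers on the array, 9 fell below the level filter. Of the 12 that passed it, 7 had a dark mean under 4 and so passed through their light values. The 12 had a median difference of 2.14. Of the 12, 3 (25%) were higher in light without overlap, where 3.27% of all genes were. Of these 3, 2 had a dark mean under 4. The log2 of the summed level of the 12 ran from 8.57 to 13.22 on the light arrays and from 8.75 to 8.93 on the dark arrays. 10 of the 12 were highest at ZT11. Without ZT11 the median difference was 0.06. Their summed level lay between 9.31 and 9.52 on the log2 scale on the other 4 arrays. The yolk protein transcripts Yp1, Yp2 and Yp3, which heads of females make in their fat body, differed by -0.07, -0.09 and -0.07 and overlapped between the phases. The part of the ovary transcripts in the differences of cell cycle genes was not tested.

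Without ZT7 3 probe sets passed (limma), those of dhd, Muc12Ea and CycB. dhd, an egg thioredoxin, was at 9.96, 3.48 and 10.88 in light and at 3.47, 3.53 and 3.52 in dark. It was high at ZT3 and ZT11 and level with the dark arrays at ZT7. dhd and CycB had all their dark values under the filter level of 4, so they were tested only because of their light values, and no size is given for their differences.

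Some genes for the hydrocarbons that coat the cuticle, which include female pheromones, were higher in light. Fad2, the desaturase of female pheromone synthesis, was at 6.97, 6.14 and 10.23 in light and at 2.95, 2.93 and 3.32 in dark. Its dark values lay under the filter level of 4, so the size of its difference depends on the handling of low values. It was 4.72 ± 0.99 (SE) on the plain log scale and 4.17 with 16 added before the log. eloF, an elongase of the same pathway, was at 5.10, 5.0 and 8.73 in light and at 3.84, 3.32 and 3.24 in dark. Both were highest at ZT11.

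CG17562 and CG17560, adjacent genes of the fatty acyl-CoA reductase family, had their highest values at ZT7 instead. CG17562 was at 9.83, 10.34 and 8.74 in light and at 8.06, 7.51 and 7.52 in dark. CG17560 was at 12.21, 12.62 and 10.18 in light and at 9.52, 9.61 and 9.75 in dark. In both genes the phases did not overlap. CG17562 lay between 2.28 and 3.17 and CG17560 between 2.57 and 2.93 on the other 4 arrays, under the filter level. A list of 8 tested genes of this pathway, drawn up after the values were seen, held these 4 (50%) as higher in light without overlap. Of all genes, 3.27% were higher without overlap, and 0 of the 8 passed. Another 2 of the 10 listed genes on the array fell below the filter. Of the 4, Fad2 and eloF had a dark mean under the filter level of 4 and passed through their light values. CG18609 was lower in light, at 11.97, 11.37 and 10.07 against 11.48, 12.06 and 11.57 in dark, a difference of -0.56 ± 0.47 (SE) with overlap. The log2 of the summed level of the 8 overlapped, at 15.97 to 16.27 on the light arrays and 15.78 to 16.09 on the dark arrays. Desat1, FarO and Cyp4g1, which act in hydrocarbon synthesis in both sexes, differed by -0.09, 0.03 and 0.08.

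**Figure D3:**
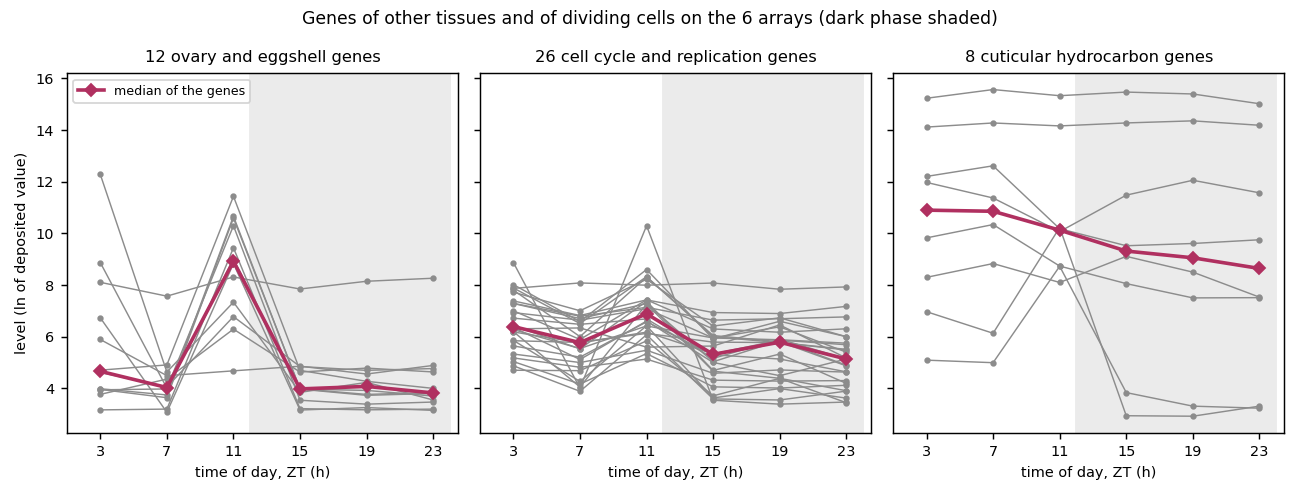
Level (natural log of the deposited value) of the tested ovary and eggshell genes, cell cycle genes and cuticular hydrocarbon genes against time of day in hours, each grey line 1 gene, the thick line their median and the dark phase shaded. The ovary median is 8.92 at ZT11 and between 3.83 and 4.67 on the other arrays.

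Of 6 genes of tyrosine breakdown, 4 were higher and 1 lower in light without overlap, where 3.27% and 4.87% of all genes were. 0 of the 6 passed. Hpd, the dioxygenase that acts on hydroxyphenylpyruvate, was at 12.37, 12.26 and 11.97 in light and at 11.38, 11.39 and 11.68 in dark. The phases were separate, with a difference of 0.72 ± 0.16 (SE; unadjusted p = 0.0033, limma), or 1.64-fold. hgo, the dioxygenase of the next step, was at 9.22, 9.10 and 8.76 in light and at 8.30, 8.32 and 8.48 in dark, a difference of 0.66 ± 0.16 (SE). Both genes were at their highest at ZT3. Among the other 4 arrays, Hpd was at 13.31 and 13.34 at ZT3 and at 12.22 and 12.69 at ZT15. hgo was at 10.39 and 10.39 at ZT3 there and at 9.72 and 9.77 at ZT15, so both were higher at ZT3 again. Over all 10 arrays the differences were 0.78 for Hpd (adjusted p = 0.133, limma) and 0.65 for hgo (adjusted p = 0.0966, limma), and neither passed.

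Tat, the aminotransferase that opens the pathway, differed by 0.45 ± 0.15 (SE), and Faa, the enzyme of its last step, by 0.19 ± 0.12 (SE), both without overlap. GstZ1 is named for the glutathione transferase class that isomerises maleylacetoacetate in mammals. It was lower in light, at 7.91, 7.88 and 8.05 against 8.34, 8.39 and 8.59 in dark. On the other 4 arrays Tat differed by -0.03 with overlap and Faa by 0.15 without overlap. There 5 of the 6 genes, all but Tat, were higher at ZT3 without overlap, where 22.3% of all genes were. GstZ1 thus ran the other way on those arrays. In all, 4 of 6 listed genes (66.7%) were higher in light without overlap and 1 (16.7%) was lower. The list was drawn up after the values were seen. Its counts stayed at 4 and 1 with any 1 of the 6 arrays left out, but leaving out an array cannot lower such counts. Of all genes, 5.26% to 11.9% were then higher and 6.47% to 13.3% lower. With arrays centred on their median the counts of the list were 3 and 1.

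Sugar metabolism was described by a list of 27 tested genes, of which 7 (25.9%) were higher in light without overlap and 2 (7.41%) lower. Of all genes, 3.27% were higher and 4.87% lower. The median difference of the 27 was 0.11, and -0.04 without ZT23. Pgi, which interconverts glucose and fructose phosphates, was at 13.11, 13.11 and 13.03 in light and at 12.77, 12.72 and 12.68 in dark. The 3 values of each phase were nearly equal, and the difference was 0.36 ± 0.11 (SE; unadjusted p = 0.0134, limma). Glys, which makes glycogen, was at 11.33, 11.18 and 11.68 in light and at 10.84, 11.07 and 11.06 in dark. The other 5 were Pgk, Pfk, Glyp, Gapdh1 and Eno, all enzymes of glycolysis or glycogen breakdown, with differences of 0.15 to 0.25. Pepck1 and fbp, enzymes of gluconeogenesis, were the 2 lower in light, by -0.13 and -0.15. With any 1 array left out, 7 to 9 of the 27 were higher in light without overlap, where 5.26% to 11.9% of all genes were. Leaving out an array cannot lower such a count. Glys was the 1 of the 27 that was higher at ZT3 without overlap on the other 4 arrays, where 5 were lower and Pgi differed by 0.01. Of all genes, 22.3% were higher and 20.8% lower there without overlap.

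Genes of defence against oxidation included 3 of 15 (20%) that were higher in light without overlap and 1 (6.67%) that was lower. Of all genes, 3.27% were higher and 4.87% lower. Sod3, an extracellular superoxide dismutase, was at 11.13, 11.18 and 11.26 in light and at 10.70, 10.33 and 10.63 in dark. Its difference was 0.63 ± 0.14 (SE), and a second probe set gave 0.64. Trxr1 differed by 0.30 ± 0.11 (SE) and Trx2, a thioredoxin, by 0.22 ± 0.11 (SE). Trx2 was also higher at ZT3 without overlap on the other 4 arrays, by 0.29. There Sod3 differed by 0.01 with overlap, and by 0.11 without overlap on its second probe set. GstD3 and GstD9, detoxifying glutathione transferases, differed by 0.46 ± 0.17 and 0.37 ± 0.14 (SE). Both lay higher at ZT3 on the other 4 arrays too, by 0.60 and 0.50. They come from a list of 31 tested glutathione transferases. Of the 31, 2 (6.45%) were higher and 2 (6.45%) lower in light without overlap. With arrays centred on their median these counts were 0 and 3.

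Of 11 genes whose transcripts follow neuronal or cellular activity, 2 (18.2%) were higher in light without overlap, where 3.27% of all genes were. Hr38, a nuclear receptor induced by neuronal activity, was at 7.37, 7.06 and 7.38 in light and at 6.87, 6.29 and 6.80 in dark. The difference was 0.62 ± 0.20 (SE; unadjusted p = 0.0173, limma). Its levels on the other 4 arrays were 7.79 and 7.41 at ZT3 and 5.82 and 6.09 at ZT15, a difference of 1.65. Jra, the fly Jun, differed by 0.19 ± 0.11 (SE), and by 0.30 on the other 4 arrays.

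The genes named as lower in light were CG14221, CG8419, M7BP, rdhB, CG13022, CG13670, Lsp2, CG1632, CG14153, CG15760, mbl and CG42367. Of these 12, all but mbl had a lower mean at ZT3 than at ZT15 on the other 4 arrays, where 48.1% of all tested probe sets did. The 12 named as higher in light were mixed there. CG14963, fzy, CG18190, Fad2 and CG17562 had means under the filter level of 4 at both times there, so their direction is not read. Of the rest, CG16727, borr and CG17239 were lower at ZT3, and Cks30A, CG43074, CG17005 and PCNA higher. CG8419 had the largest difference of the genes named as lower in light. It was at 6.25, 5.58 and 6.13 in light and at 7.78, 7.92 and 8.59 in dark, a difference of -2.11 ± 0.28 (SE), or 4.31-fold higher in dark. It differed by -1.0 on the other 4 arrays, and over all 10 arrays its adjusted p was 0.118 (limma).

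rdhB encodes a retinol dehydrogenase that works in the making of the visual chromophore. It was at 11.19, 10.69 and 11.02 in light and at 11.85, 12.17 and 12.01 in dark. The phases were well apart, with a difference of -1.05 ± 0.17 (SE), or 2.07-fold higher in dark. The other 4 arrays had rdhB at 12.54 and 12.57 at ZT3 and at 13.09 and 13.27 at ZT15. Of 6 other genes of the retinoid cycle, listed after the values were seen, ninaG was lower in light by -0.40 and santa-maria, a scavenger receptor for carotenoid uptake, higher by 0.30, both without overlap. With rdhB, 2 of the 7 (28.6%) were lower and 1 (14.3%) higher without overlap, where 4.87% and 3.27% of all genes were. The median of the 7 was -0.14. ninaB, which cleaves carotenoids to retinal, differed by -0.14 with overlap. ninaG was not lower at ZT3 on the other 4 arrays, where it differed by 0.08.

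Lsp2, a storage protein of the fat body, was at 9.07, 8.39 and 8.64 in light and at 9.65, 10.31 and 10.57 in dark. Its difference was -1.48 ± 0.28 (SE), and -1.25 on the other 4 arrays. Over all 10 arrays the adjusted p was 0.0715 (limma). It was the 1 of 10 tested fat body markers (10%) that was lower in light without overlap, where 4.87% of all genes were. The median of that list was -0.07. mbl, a splicing regulator, was at 6.50, 6.47 and 6.15 in light and at 7.36, 7.29 and 8.21 in dark. Its 6 tested probe sets all differed downwards in light, by -0.33 to -1.25, but some of them overlapped between the phases. The probe sets were mixed in direction on the other 4 arrays. The brightest, which overlapped at -0.33, was higher at ZT3 there by 1.01 without overlap. The named mbl probe set differed by 0.21, in the opposite direction, on the other 4 arrays.

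The largest difference in favour of the dark was that of Achl, chosen after its values were seen. It was at 6.35, 3.69 and 4.29 in light and at 6.43, 8.67 and 9.91 in dark. ZT3 and ZT15 were nearly level, and the difference of -3.56 ± 1.02 (SE; unadjusted p = 0.0115, limma) came from the later times of each phase. Among the other 4 arrays, Achl was at 8.21 and 8.15 at ZT3 and at 7.52 and 7.25 at ZT15, which runs the other way.

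Mitochondrial ribosomal protein genes, which encode the machinery for translation inside mitochondria, were lower in light by small amounts. Of 69 tested genes 64 were below 0, where 48.6% of all genes were. 20 of the 69 (29%) were lower in light without overlap and 0 (0%) were higher, where 492 of all 10102 genes (4.87%) were lower without overlap. 4 of the 69 had an unadjusted p under 0.05 (limma), all lower in light, where 1.56% of all genes reached it as higher and 2.03% as lower in light. 0 of the 69 passed. The median difference was -0.14, against 0.01 for all genes.

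mRpL13, a protein of the large mitochondrial subunit, was at 9.20, 9.21 and 9.38 in light and at 9.64, 9.59 and 9.64 in dark. The dark values were nearly equal and all above the light values, and the difference was -0.36 ± 0.11 (SE), or 1.28-fold higher in dark. mRpL11 was at 7.75, 7.73 and 7.89 in light and at 8.08, 8.07 and 8.23 in dark, a difference of -0.33 ± 0.12 (SE). mRpL54 differed by -0.37 ± 0.13 (SE) and mRpS18A, of the small subunit, by -0.25 ± 0.11 (SE), both without overlap.

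The median level of the 69 was 9.07, 8.93 and 9.08 on the light arrays and 9.21, 9.10 and 9.15 on the dark arrays. Of the 69, 26 had their highest value at ZT23 and 23 at ZT15. With any 1 array left out, 22 to 34 of the 69 were lower in light without overlap, where 6.47% to 13.3% of all genes were. Leaving out an array cannot lower such a count. Under the other scalings 20 to 26 of the 69 were lower without overlap. At ZT3 34 of the 69 were lower and 9 higher than at ZT15 without overlap on the other 4 arrays, with a median difference of -0.09. Of all genes, 20.8% were lower and 22.3% higher there without overlap. Nuclear genes of oxidative phosphorylation, which work in the same organelle, had a median difference of -0.003, with 1 of 77 (1.3%) lower in light without overlap. Cytoplasmic ribosomal proteins had a median of 0.04 with 31 of 41 above 0, and of -0.0006 once arrays were centred on their median.

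**Figure D4:**
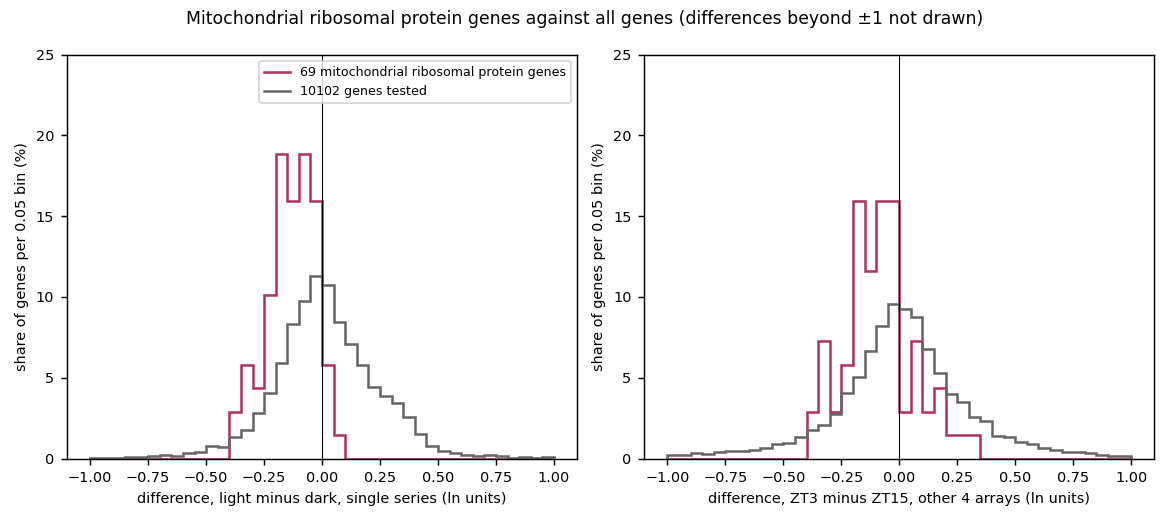
Share of genes in percent per bin of 0.05 against the difference, light minus dark on the 6 arrays at left and ZT3 minus ZT15 on the other 4 arrays at right, for the 69 mitochondrial ribosomal protein genes and for all 10102 genes. On the left 64 of the 69 lie below 0, and the medians are -0.14 at left and -0.09 at right.

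Odorant-binding proteins are secreted carriers of small molecules in sensory hairs and elsewhere. Of 27 tested genes, 5 (18.5%) were lower in light without overlap and 0 (0%) higher, where 4.87% and 3.27% of all genes were. Obp56e was at 12.65, 12.89 and 13.02 in light and at 13.41, 13.59 and 13.79 in dark, a difference of -0.75 ± 0.16 (SE). Obp99b was at 11.44, 11.08 and 10.68 in light and at 11.46, 11.72 and 11.52 in dark, so that ZT3 and ZT15 nearly met. Obp56e differed by -0.31 and Obp99b by -1.38 on the other 4 arrays, each without overlap.

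Of 71 tested cytochrome P450 genes, 5 (7.04%) were higher and 5 (7.04%) lower in light without overlap, where 3.27% and 4.87% of all genes were. With arrays centred on their median these counts were 2 and 6. Cyp4d21, which acts in male courtship behaviour, was at 10.24, 10.46 and 11.08 in light and at 11.99, 11.75 and 11.38 in dark. It climbed towards ZT15 and declined after it, and the difference was -1.12 ± 0.26 (SE). Cyp4d21 was at 10.65 and 10.62 at ZT3 and at 11.94 and 11.94 at ZT15 on the other 4 arrays. Cyp18a1, which inactivates the moulting hormone ecdysone, differed by -0.76 ± 0.25 (SE), and by -1.35 on the other 4 arrays. Cyp6a19, 1 of the 5 that were higher in light, had its highest value of 6.02 at ZT11. Its dark mean was 3.84, under the filter level of 4. It passed the filter through its light values, so no size is given for its difference.

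Neuron markers were a little lower in light, and most were highest on 1 dark array. All 20 neuron markers were below 0, with a median of -0.17, and 0 of the 20 were without overlap. 18 of the 20 had their highest value at ZT23, and without ZT23 the median was 0.02. Without ZT19 the median was -0.29 and 8 of the 20 (40%) were lower in light without overlap, where 13.3% of all genes were. The log2 of their summed level ran from 15.88 to 15.91 on the light arrays and from 15.85 to 16.33 on the dark arrays. On the other 4 arrays the median difference between ZT3 and ZT15 was 0.18. elav, an RNA-binding protein of all neurons, was at 11.10, 11.18 and 11.43 in light and at 11.35, 11.07 and 11.64 in dark.

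All 18 rhythm-linked ion channel genes were below 0 as well, with a median of -0.24 and 2 (11.1%) without overlap. The share of all genes lower in light without overlap was 4.87%. 13 of the 18 had their highest value at ZT23. Without ZT23 the median was -0.11, with 3 higher (16.7%) and 4 lower (22.2%) without overlap, where 7.62% and 8.53% of all genes were. Without ZT11 6 (33.3%) were lower, where 13.2% of all genes were. The 2 lower on the full 6 arrays were Ih, the hyperpolarisation-activated channel, and Shab, a potassium channel. Their differences were -0.41 ± 0.22 and -0.34 ± 0.21 (SE). Slob, which encodes a protein that binds the Slowpoke potassium channel, was at 9.83, 10.40 and 11.54 in light and at 11.74, 11.49 and 11.15 in dark. It overlapped between the phases through ZT11, and its difference was -0.87 ± 0.43 (SE). Slob was lower at ZT3 on the other 4 arrays, by -1.62, without overlap.

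Genes of light detection and eye pigment gave few separate values. Of 19 phototransduction genes, 1 (5.26%) was higher and 1 (5.26%) lower in light without overlap, where 3.27% and 4.87% of all genes were. The median of the 19 was -0.08. 14 of the 19 were highest at ZT23. Without ZT23 the median was 0.05, with 4 (21.1%) higher in light without overlap, where 7.62% of all genes were. The lower one was rdgA, the diacylglycerol kinase of photoreceptors, which differed by -0.59 in the 6 arrays and by 0.02 on the other 4. Of 14 eye pigment genes 12 were below 0, and bw and cd (14.3%) were lower in light without overlap, where 4.87% of all genes were. bw, a subunit of the pigment precursor transporter, differed by -0.48, and by -0.51 on the other 4 arrays.

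Tissue markers moved between single arrays more than between phases. Act88F, the actin of flight muscle, was at 11.98, 8.5 and 12.10 in light and at 5.96, 13.40 and 6.66 in dark. The log2 of the summed level of 20 muscle markers ran from 15.97 to 16.49 on the light arrays and from 15.78 to 16.64 on the dark arrays, and 0 were without overlap. Of 19 testis markers 18 were above 0, with a median of 0.31 and 0 without overlap, and 14 had their highest value at ZT7. Their summed level ran from 15.76 to 16.50 on the light arrays and from 15.35 to 16.36 on the dark arrays on the log2 scale. Without ZT19, 13 of the 19 testis markers (68.4%), 8 of the 20 muscle markers (40%) and 8 of 21 gut proteases (38.1%) were higher in light without overlap, where 11.9% of all genes were. Of 17 accessory gland markers 16 were below 0, with a median of -0.24 that was 0.004 without ZT19, and 15 had their highest value at ZT19.

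**Figure D5:**
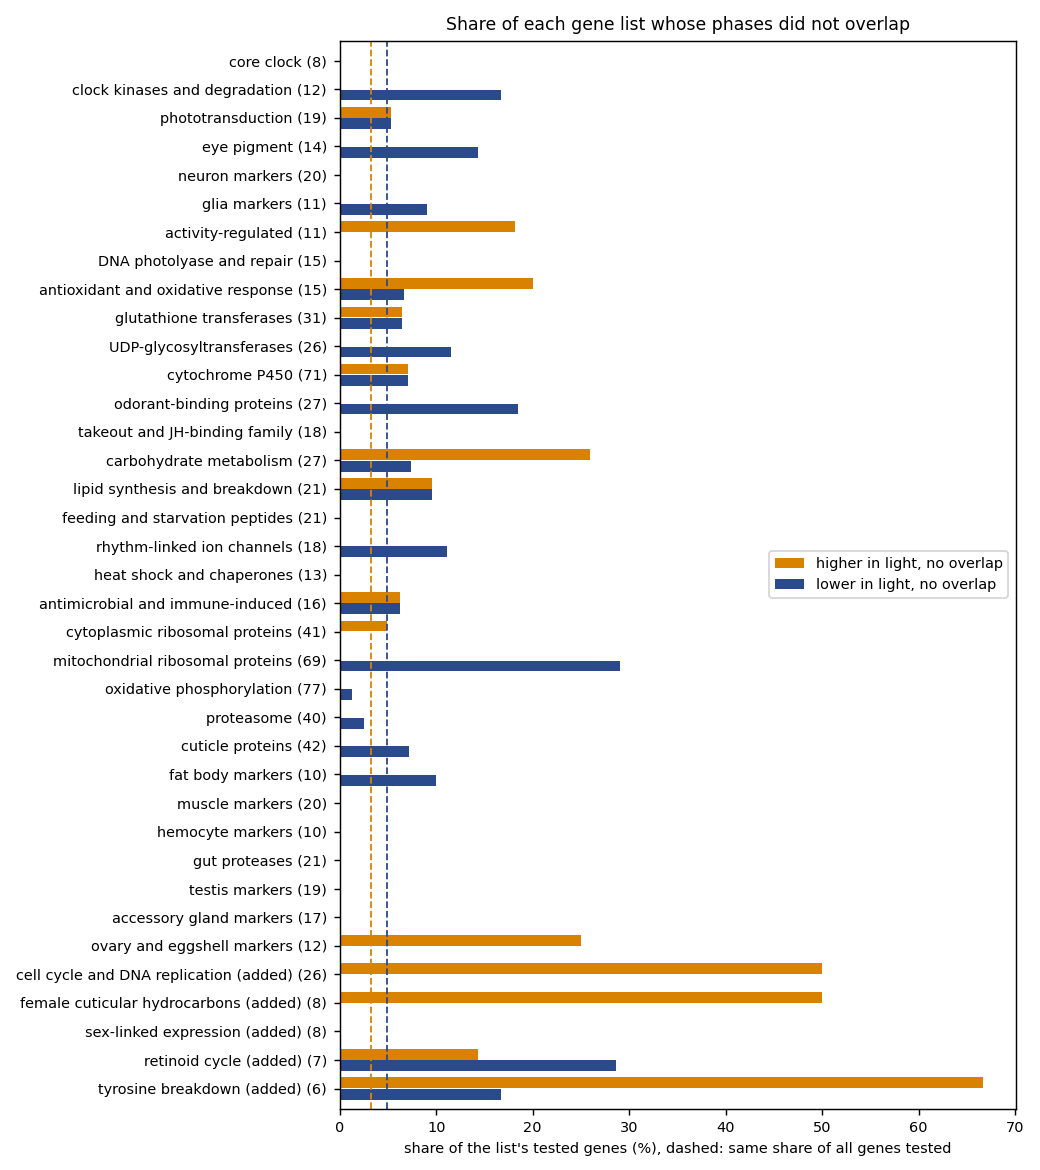
Share in percent of each list's tested genes (number in brackets) whose phases did not overlap, with orange bars for higher in light and blue bars for lower in light, and dashed lines at 3.27% and 4.87% for all genes. Lists marked as added were drawn up after the values were seen, and lists of few genes move in large steps.

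The heat shock list, the feeding peptides, the takeout family, DNA repair and the gut proteases had 0 genes without overlap on the 6 arrays, and these counts depended on single arrays. Without ZT19, 4 of 13 heat shock genes (30.8%) were higher and 6 of 21 feeding peptides (28.6%) lower in light. Without that array 11.9% of all genes were higher and 13.3% lower. Without ZT11, 6 of 18 takeout family genes (33.3%) were higher and 3 of 15 DNA repair genes (20%) lower, where 6.7% of all genes were higher and 13.2% lower. Hsp26, a small heat shock protein, differed by 0.86 and Hsp27 by 0.70, both with overlap. Of 40 proteasome genes 36 were above 0, with a median of 0.11 and 1 (2.5%) without overlap, lower in light. Without ZT23 the median was -0.05, with 0 higher and 3 lower (7.5%), where 7.62% and 8.53% of all genes were. Of 42 cuticle proteins 3 (7.14%) were lower in light without overlap on the 6 arrays, where 4.87% of all genes were. Among immune genes TotC, a stress-induced humoral factor, was lower in light by -0.58 and PGRP-LB, an amidase that degrades peptidoglycan, higher by 0.40. TotC ran the other way on the other 4 arrays, where ZT3 exceeded ZT15 by 2.24.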

How the data were processed

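The authors deposited 1 intensity per probe set and array (18952 probe sets), made with GCRMA, per the submitters' processing notes. No version or setting of GCRMA is named in those notes. GCRMA corrects background by probe sequence, normalizes arrays and summarises probes. The largest deposited intensity, 8.53e+06, has a natural log of 15.96, a usual size for a log2 value, so natural logs were used without further normalization. Depth is not defined for arrays, and their number limits the precision.

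After 183 control probe sets were left out, the 12811 with a mean of at least 4 (a deposited 54.6) over the 6 arrays were tested with limma 3.58.1 in R 4.3.3 (lmFit, eBayes, a threshold of 0.05 after Benjamini-Hochberg adjustment). Light minus dark was fitted on the 6 arrays, and ZT3 minus ZT15 on the other 4 (12520 probe sets by the same rule). An exact permutation test of 3 against 3 arrays cannot go below 0.1. Nothing in the labels says that arrays came from separate cultures, so the p-values reflect the spread among these arrays alone, which may be technical. The fit was tested on simulated data.

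The platform annotation gave 13647 probe sets 1 gene symbol, 402 several and 4720 none. Each gene was represented by whichever of its probe sets had the greatest 6-array mean. Named genes are up to 12 per direction, filled by the smallest unadjusted p among probe sets of 1 symbol without overlap and with a difference of at least 1 (none had passed), the core clock, and up to 3 genes per list. Genes named outside that rule were chosen after their values were seen. The comparison and 32 gene lists were chosen with earlier results of these data known, and 5 lists were added after the values were seen. 0 columns of other samples were present. Alternatives covered the log and its offset, filters, scaling, variance prior, blocks and left-out arrays. Figures were drawn with matplotlib 3.10.9.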

Additional observations from a re-analysis of the deposited data

How the results depend on the processing

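No paired analysis was possible because the labels number only ZT3 (replicate 3) and ZT15 (replicate 1) among the 6 arrays, with different numbers. A block of times 12 hours apart, which pairs by clock time, was used as an alternative. The count of 0 passing probe sets held under each alternative except 2: it was 3 with all 10 arrays and the array series as a block, and 0 to 3 with 1 array left out (3 without ZT7). The 450 probe sets with an unadjusted p under 0.05 (limma) became 760 with no filter, 809 with the block of times, 847 with all 10 arrays, and 267 to 921 with 1 array left out (267 without ZT3, 921 without ZT19). The 389 higher in light without overlap became 235 with arrays centred on their median, and 685 to 1375 with 1 array left out. The 624 lower in light became 1395 with no filter, and 853 to 1818 with 1 array left out, where fewer arrays overlap less easily. For ZT3 against ZT15 on the other 4 arrays, the count of 0 became 6 with an offset of 16 before the log, 38 with a mean of 6 or more, 2 with quantile normalization and 63 with a trended and robust variance prior, and it stayed 0 (0 to 0) with 1 array left out; the cause was not tested. Among the 32 named genes and 16 alternatives, 497 values kept their direction and side of the threshold, 3 came to pass and 5 reversed: cwo (0.13 and 0.17) and vri (0.57 and 0.29), without ZT3 replicate 3 and ZT15 replicate 1, and Clk (-0.28), without ZT15 replicate 1. With 1 array left out, cwo ran from -0.35 to 0.17, vri from -0.90 to 0.57 and Clk from -0.28 to 1.03. With 1 time per array, no value has an error for its own time.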
